A study of Mus musculus with 6 samples.

Results

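The genes of mouse chromosome 8 that were expressed in a line of embryonic fibroblasts were followed along the chromosome, from libraries with a control hairpin to libraries with a hairpin against ARF. A gene was a member when GENCODE release M21 (build GRCm38) placed it on chromosome 8 and its level, averaged over the 6 libraries, was at least 1 CPM (counts per 1000000 counts of the library, scaled by the trimmed mean of M values, TMM). This gave 747 members of the 2539 chromosome 8 genes in the table and of the 13733 genes in the series that reached that level. Of the members, 647 were protein-coding and 45 were processed pseudogenes. The chromosome was chosen by these same values, the fold changes between the groups, because its median was the lowest of all chromosomes, and it was read in windows of 10 Mb as a possible copy number shift. The differences between the groups are therefore a description of the members, given with no p-value.

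Mouse embryonic fibroblasts are cells grown out of dissected embryos, and the cell line label describes these as p53-deleted in every sample. The control group, shNT, carried a negative control short hairpin RNA and its genotype is labelled WT. The second group, shARF, carried a hairpin against ARF, a product of the Cdkn2a locus on chromosome 4, and its genotype is labelled ARF knockdown. Both hairpins were delivered by lentivirus, all titles also carry the tag neo, and the cells were grown in DMEM with fetal bovine serum. Each group has 3 libraries labelled as biological replicates, with 40.3 to 47 M counts per library. The labels do not say whether these came from separate infections or cultures, so the tests measure the spread between these libraries alone.

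Mouse chromosomes are acrocentric, with the centromere next to the first base of the sequence. Chromosome 8 carries genes of many kinds, among them the head-to-head pair of basement membrane collagens Col4a1 and Col4a2, a cluster of cadherins, the Irx genes and many genes of everyday cell machinery. Embryonic fibroblasts without p53 tolerate gains and losses of whole chromosomes in culture, and for most genes the RNA level roughly follows the number of gene copies. DNA was not measured here, and the part of copy number in these differences was not tested.

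The labels were checked first. Cdkn2a stood at 231, 218 and 223 CPM with the control hairpin and at 95.6, 103 and 107 CPM with the ARF hairpin, a log2 fold change of -1.14 (SE 0.05, adjusted p = 2.52e-06, quasi-likelihood test of edgeR with Benjamini-Hochberg adjustment). Each shARF library was below each control. The groups also stood apart in genes of the sex chromosomes. Xist, the RNA that coats an inactive X chromosome, was at 413, 389 and 360.2 CPM in shNT and at 40.7, 54.3 and 42.1 CPM in shARF. Ddx3y, on the Y chromosome, was at 22.8, 26.0 and 24.3 CPM in shNT and at 86.4, 88.9 and 80.7 CPM in shARF. Xist and Ddx3y were present in all 6 libraries and neither overlapped between the groups. Kdm5d, also on the Y chromosome, was at 0.890, 0.534 and 0.923 CPM in shNT and at 19.9, 19.8 and 18.8 CPM in shARF. Eif2s3y and Uty, on the Y chromosome too, had log2 fold changes of 1.58 and 1.17. The part of this difference between the cultures in the values of chromosome 8 was not tested.

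All 8 fibroblast markers were at 1 CPM or more, with a summed level of 20799.5 to 22416 CPM in shNT and 24212 to 24485 CPM in shARF. Collagens and Fn1 made up most of that sum, and Pdgfra, a receptor that marks fibroblasts, went the other way, from 497, 508 and 500.5 CPM in shNT to 92.4, 88.8 and 93 CPM in shARF. Among markers of other cells, 2 of 6 endothelial genes reached 1 CPM (summed 2.40 to 2.89 and 2.81 to 3.62 CPM) and Cdh5, Tie1 and Cldn5 were at 0. For epithelium 3 of 6 reached it (36.8 to 39.7 and 32.7 to 34.0 CPM, none at 0 throughout), and for macrophages and blood 2 of 6 (6.73 to 7.47 and 1.52 to 2.03 CPM), with Adgre1 at 0. For skeletal muscle 1 of 5 reached it (1.53 to 1.72 and 4.95 to 6.11 CPM), with Myod1 and Myog at 0. For neural cells 2 of 5 reached it (70.4 to 74.0 and 93.6 to 102 CPM), with Sox10 and Sox2 at 0. The sums of all these lists except the endothelial one did not overlap between the groups. Within the endothelial sum, Kdr rose from 0.282, 0.246 and 0.316 CPM in shNT to 3.06, 2.81 and 3.53 CPM in shARF. Tek fell from 2.11, 2.05 and 2.31 CPM in shNT to 0.112, 0 and 0.0895 CPM in shARF. The part of all these markers in the differences below was not tested. In bulk RNA, fewer cells that express a gene and less of its RNA per cell cannot be told apart.

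Promoters are shown for 6 members that mark the range of behaviours on the chromosome: the collagen pair and Hand2, which were higher with the ARF hairpin, Hhip, which was lowest relative to the control among members at 5 CPM or more, Cul4a, which lay near the shift of the chromosome as a whole, and Lamp1, which fell further. Each sequence runs 5′ to 3′ on the gene's strand from 250 bases before to 50 bases after the transcript start, from RefSeq on GRCm38.p6. Capitals mark GGGCGG (the GC box bound by Sp1), CCAAT and TATAAA on either strand, so that CCGCCC and ATTGG are the same motifs read from the other strand.
Col4a1: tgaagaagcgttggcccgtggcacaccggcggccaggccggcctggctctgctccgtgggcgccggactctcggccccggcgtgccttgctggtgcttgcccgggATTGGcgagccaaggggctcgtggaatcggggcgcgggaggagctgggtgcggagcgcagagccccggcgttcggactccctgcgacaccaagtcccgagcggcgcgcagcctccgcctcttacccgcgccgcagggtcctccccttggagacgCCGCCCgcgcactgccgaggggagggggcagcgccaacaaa
Col4a2: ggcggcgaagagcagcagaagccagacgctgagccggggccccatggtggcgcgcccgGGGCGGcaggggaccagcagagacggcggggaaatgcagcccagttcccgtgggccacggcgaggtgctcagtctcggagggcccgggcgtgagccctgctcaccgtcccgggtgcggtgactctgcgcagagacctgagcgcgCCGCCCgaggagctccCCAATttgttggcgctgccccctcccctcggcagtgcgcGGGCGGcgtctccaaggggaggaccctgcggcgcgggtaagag
Hand2: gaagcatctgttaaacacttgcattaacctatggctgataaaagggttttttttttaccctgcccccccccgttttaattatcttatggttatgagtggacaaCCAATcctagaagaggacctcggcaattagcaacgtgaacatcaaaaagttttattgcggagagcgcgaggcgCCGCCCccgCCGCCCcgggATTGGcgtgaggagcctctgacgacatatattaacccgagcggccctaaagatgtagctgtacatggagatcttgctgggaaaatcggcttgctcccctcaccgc
Hhip: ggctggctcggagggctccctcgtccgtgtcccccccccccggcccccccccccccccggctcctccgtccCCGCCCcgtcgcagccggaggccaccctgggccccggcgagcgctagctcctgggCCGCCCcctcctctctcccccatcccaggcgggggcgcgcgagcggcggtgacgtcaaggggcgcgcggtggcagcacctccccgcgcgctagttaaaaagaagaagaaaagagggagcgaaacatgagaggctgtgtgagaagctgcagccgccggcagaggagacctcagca
Lamp1: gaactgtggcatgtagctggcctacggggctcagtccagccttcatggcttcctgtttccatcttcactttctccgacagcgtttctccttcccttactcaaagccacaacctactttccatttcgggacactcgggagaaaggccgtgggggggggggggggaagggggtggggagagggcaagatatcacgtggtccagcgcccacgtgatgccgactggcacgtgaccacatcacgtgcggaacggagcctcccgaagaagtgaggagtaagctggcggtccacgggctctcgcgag
Cul4a: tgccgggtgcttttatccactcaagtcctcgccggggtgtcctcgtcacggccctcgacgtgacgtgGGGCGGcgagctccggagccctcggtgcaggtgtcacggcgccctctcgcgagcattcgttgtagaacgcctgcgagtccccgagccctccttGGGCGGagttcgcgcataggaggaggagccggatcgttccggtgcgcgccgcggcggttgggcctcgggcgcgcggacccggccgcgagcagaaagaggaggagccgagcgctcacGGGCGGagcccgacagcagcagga

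The Col4a1 window lies at chr8:11312777-11313076 on the minus strand and the Col4a2 window at chr8:11312555-11312854 on the plus strand. The windows overlap by 78 bases, so each promoter is partly the reverse complement of the other, and the annotated first bases of the 2 genes overlap by 22 bases. Hand2 is at chr8:57320733-57321032 (plus), Hhip at chr8:80057959-80058258 (minus), Lamp1 at chr8:13158911-13159210 (plus) and Cul4a at chr8:13105373-13105672 (plus). Their content of G and C was 50.3% for Hand2 and 60.7% for Lamp1, against 71.0% for Cul4a and 73.7% for Hhip. Lamp1 held none of the 3 motifs in this window, Cul4a held 3 GC boxes, Hhip held 2, and Hand2 held 2 GC boxes and 2 CCAAT boxes.

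RefSeq promoters matched 454 of the 747 members by symbol (60.8%), which is under the 80% needed, so the comparison of promoter content over the members is void and is given for the matched ones as a description. Of their 566 promoters, 65.2% held GGGCGG on either strand, 39.0% CCAAT and 7.42% TATAAA. Over all 32851 promoters in the RefSeq table, expressed or not, the shares were 35.7%, 37.4% and 13.6%. GGGCGG was in 67.3% of the 355 promoters of members called lower and in 51.9% of the 77 of members called higher.

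With the ARF hairpin, the expressed genes of chromosome 8 were lower as a body. The median log2 fold change (shARF minus shNT) of the 746 members that were fitted was -0.27, which leaves 82.9% of the control level, against 0.02 for the genes on all other chromosomes and 0.01 over all genes. A fold change below 0 was found for 548 members (73.5%), against 47.6% of other genes. At an adjusted p under 0.05, 426 members (57.0%) were called lower and 129 (17.3%) higher. Among all genes at this level 30.5% were called lower and 32.9% higher, 63.4% in either direction, and among all 17128 genes fitted 27.7% and 28.8%, 56.4% in either direction. The rule that picked the chromosome used this same contrast, so nothing is read from the shares.

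**Figure D1:**
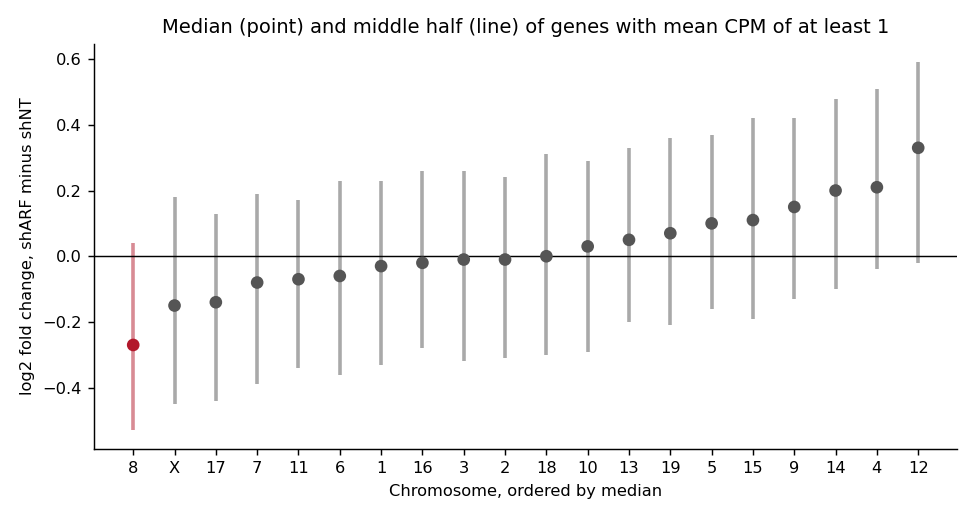
Median log2 fold change (shARF minus shNT, vertical axis) of the expressed genes (mean CPM 1 or more) of each of 20 chromosomes, ordered by median, with vertical lines from the 25th to the 75th percentile. Chromosome 8 (red) has the lowest median (-0.27) and chromosome 12 the highest (0.33), while the lines have about the same length on all chromosomes.

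Most of the distribution was displaced. The difference from the other genes was -0.25 at the 25th percentile, -0.30 at the median, -0.28 at the 75th and -0.25 at the 90th, and it was smaller at the 5th and 95th percentiles, at -0.07 and -0.15. Its interquartile range, 0.57, was within the 0.51 to 0.63 of other chromosomes. Members with a log2 fold change between -0.6 and -0.1 made up 46.8% of the chromosome and 26.3% of other genes. Called changes of 2-fold or more were found for 67 members downward (8.97%, against 6.26% elsewhere) and for 36 upward (4.82%, against 5.83%).

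For orientation, a loss of 1 copy of 4 would correspond to a log2 ratio of -0.42, of 1 copy of 3 to -0.58 and of 1 copy of 2 to -1, if RNA followed DNA exactly and in every cell. The median of -0.27 was smaller in size than each of these, as was its difference of -0.30 from other genes. DNA was not measured, and the part of copy number was not tested. Next after chromosome 8 came X at -0.15, chromosome 17 at -0.14 and chromosome 7 at -0.08. At the other end were chromosome 9 at 0.15, chromosome 14 at 0.20, chromosome 4 at 0.21 and chromosome 12 at 0.33. Genes called lower were 44.1% on X and on chromosome 17, and 13.7% on chromosome 12.

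The replicate libraries were close to each other. Relative to the mean of the shNT libraries, on the scale of log2(CPM + 0.5), the median over chromosome 8 was -0.004, -0.001 and 0.006 in the shNT libraries and -0.258, -0.267 and -0.258 in the shARF libraries. The 3 shARF libraries were thus all low, with an SD of 0.0055 in shNT and 0.0052 in shARF (n = 3 each), and nothing is read from the gap, since this median chose the chromosome. Members took 5.43%, 5.47% and 5.44% of all counts in shNT and 4.64%, 4.63% and 4.61% in shARF. Such a share is scaled by the library's total count alone, without TMM. X and chromosome 17 lay between -0.130 and -0.151 in the shARF libraries, chromosome 4 between 0.202 and 0.217, and chromosome 12 between 0.287 and 0.308.

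Of the 747 members, 593 (79.4%) had no overlap between the groups, against 70.6% of all genes at this level and 64.6% of all genes fitted. All 129 members called higher and 425 of the 426 called lower were among them. The exception was Cox4i1, a subunit of cytochrome c oxidase, at 101, 112 and 115 CPM in shNT and 101, 78.1 and 72.7 CPM in shARF, where the first shARF library was as high as the first control.

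On both sides of the threshold on level there were fold changes of either sign. Just inside it lay Gm45493 (mean 1.037 CPM, log2 fold change -0.15), Gm1943 (1.039 CPM, 0.60) and 2500002B13Rik (1.045 CPM, -0.57). Just outside lay Gm45640 (0.990 CPM, -0.27), Gm45074 (0.966 CPM, 0.72) and Stox2 (0.949 CPM, 0.79). A total of 705 members reached 1 CPM in both groups, 22 in shNT alone and 20 in shARF alone. For members that reached it in a single group, the direction of the difference was fixed by the threshold. Of the chromosome's genes, 1410 had a count in some library and 895 passed the filter for fitting.

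Read in order of position, the members were low along nearly the whole chromosome. All 13 windows of 10 Mb had a median below 0 (the highest at -0.004), and 9 of the 13 were below -0.2. Elsewhere in the genome 11 of 234 windows with at least 15 genes (4.70%) were below -0.2, and X held 5 of those 11. Of the 20 lowest windows of the genome, 9 were on chromosome 8.

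**Figure D2:**
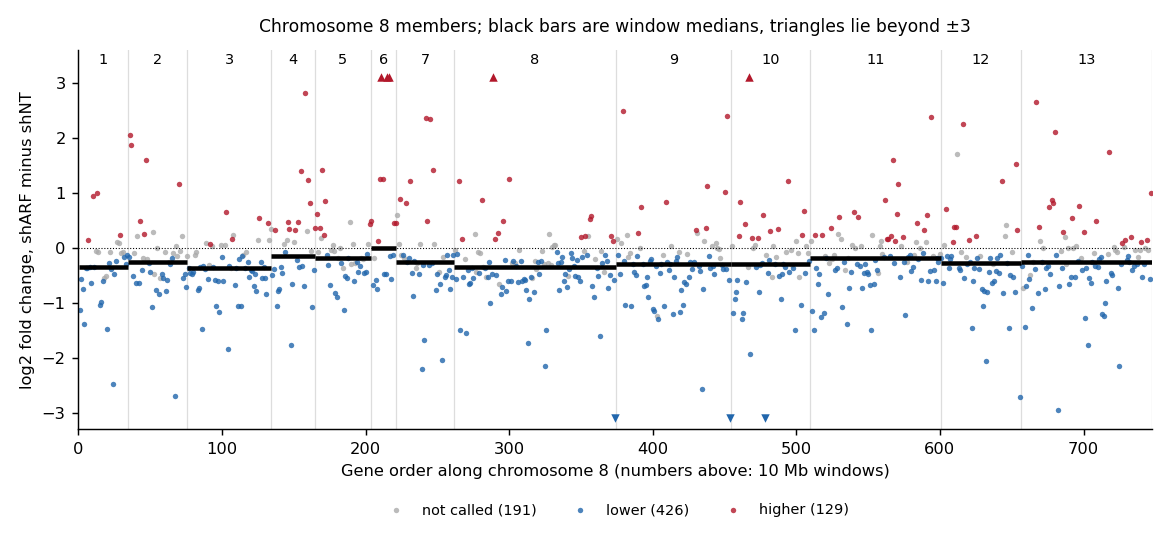
Log2 fold change (shARF minus shNT) of each member in order along chromosome 8, with grey vertical lines between 10 Mb windows, numbered above, and black bars at the window medians; triangles stand for members beyond 3 in size. Window 6 is that from 50 to 60 Mb. The blue points of the 426 members called lower run from one end to the other and the 129 called higher (red) are scattered among them, with window 6 the one whose bar sits at 0.

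The first 3 windows, from the centromere to 30 Mb, had medians of -0.34 (34 members, 21 called lower and 4 higher), -0.25 (41 members, 20 and 6) and -0.36 (59 members, 39 and 5). In each window the member nearest to the median, among protein-coding genes at 20 CPM or more, stands for the typical gene there. In the first window it was Xab2, a factor of transcription-coupled repair, at 64.4, 63.5 and 64.6 CPM in shNT and 54.2, 50.3 and 48.0 CPM in shARF. In the second it was Cul4a, a scaffold of ubiquitin ligases, at 205, 199.8 and 205 CPM in shNT and 169.6, 165 and 169 CPM in shARF. In the third it was Bag4, a co-chaperone, at 55.7, 52.0 and 54.8 CPM in shNT and 40.4, 42.4 and 43.8 CPM in shARF. For these 3 genes each shARF library was below each control, with log2 fold changes of -0.34 (SE 0.05), -0.28 (SE 0.02) and -0.36 (SE 0.05).

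The windows from 30 to 60 Mb were the least displaced. Their medians were -0.15 (30 members, 16 called lower and 9 higher), -0.18 (39 members, 17 and 7) and -0.004 (18 members, 8 and 9). The genes picked by the same rule were Ppp2cb, a catalytic subunit of protein phosphatase 2A (-0.08, SE 0.03), Pcm1, a protein of centriolar satellites (-0.12, SE 0.03), and Spcs3, a subunit of the signal peptidase (0.12, SE 0.03). The calls of such small differences were not stable: Ppp2cb lost its call in 8 of 14 alternatives, Pcm1 in 4, and Spcs3 (at 0.03) with library sizes alone. Spcs3 was at 335, 334 and 329 CPM in shNT and 351, 374 and 362 CPM in shARF, higher in every shARF library. It was the nearest to the window's median that the rule allowed, but lay on the other side of 0. The 13 protein-coding members of the 50 to 60 Mb window had a median of -0.13. Its median over all members was 0.033 without the first shARF library and 0.003 without the third, so its side of 0 rests on single libraries.

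From 60 Mb to the end of the chromosome the medians were -0.26 (40 members), -0.35 (113), -0.30 (80), -0.29 (55), -0.19 (91), -0.27 (56) and -0.25 (91). Members called lower outnumbered those called higher in each of these 7 windows, from 70 against 14 at 70 to 80 Mb to 27 against 12 at 90 to 100 Mb. Typical genes called lower were Atp6v1b2, a subunit of the vacuolar proton pump (-0.27), Coq9 of ubiquinone synthesis (-0.29), Pdp2, a phosphatase that activates pyruvate dehydrogenase (-0.19), Mbtps1, the site-1 protease that activates SREBP (-0.27), and Sprtn, a protease that removes DNA-protein crosslinks (-0.25). In the 70 to 80 and 80 to 90 Mb windows the gene nearest the median did not pass the test. Rex1bd was at 31.3, 31.4 and 45.5 CPM in shNT and 27.9, 26.8 and 30.4 CPM in shARF (-0.35, SE 0.15), and Tnpo2, a nuclear import receptor, at 135, 165 and 168 CPM in shNT and 122, 114 and 143 CPM in shARF (-0.30, SE 0.11). The third control library stood above the other 5 for Rex1bd, and for Tnpo2 the groups overlapped. These missing calls depended on the fit: of 14 alternatives, 7 called Tnpo2 lower and 3 called Rex1bd lower, DESeq2 and the replicate block among them for both.

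The window medians were alike in the 3 shARF libraries. At 20 to 30 Mb they were -0.35, -0.35 and -0.39, at 70 to 80 Mb -0.33, -0.34 and -0.32, and at 110 to 120 Mb -0.25, -0.26 and -0.31. The widest spread was at 30 to 40 Mb, where the first shARF library was at -0.27 and the other 2 at -0.16 and -0.15. In the shNT libraries no window median was further from 0 than -0.04. Only at 50 to 60 Mb did the shARF libraries lie among or above the controls.

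**Figure D3:**
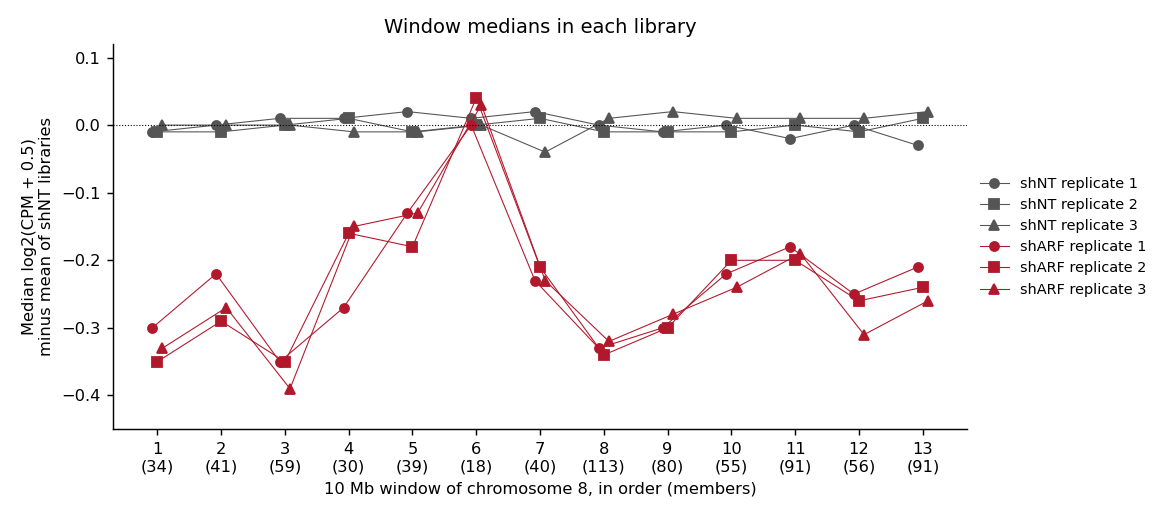
Median over the members of each 10 Mb window (horizontal axis, number of members in parentheses) of log2(CPM + 0.5) minus the mean of the shNT libraries, one line per library. The 3 shNT lines (grey) stay within 0.04 of 0, and the 3 shARF lines (red) run together below them except at window 6.

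On a finer scale the displacement was interrupted in places. The median over 21 neighbouring members was below 0 at 686 of 726 positions. Both extremes below were chosen for their values and are given as a description. The lowest, -0.59, ran from Gm11175 to Ankle1 at chr8:70699162-71409904, where 15 of 21 members were called lower and 2 higher. The highest, 0.30, ran from Gsr to Zdhhc2 at chr8:33652523-40510268, where 8 were called lower and 10 higher. The longest run of neighbours with a fold change below 0 had 27 members, from Arrdc2 to Gm18860 (chr8:70835129-71704968), of which 18 were called lower and none higher. The longest run above 0 had 5 members.

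In the low stretch, Map1s, a protein that binds microtubules, was at 106, 112 and 118 CPM in shNT and 75.1, 70.4 and 73.9 CPM in shARF (-0.62, SE 0.05). Babam1, a subunit of the BRCA1-A complex of DNA repair, was at 63.2, 64.0 and 69.4 CPM in shNT and 39.5, 37.0 and 38.6 CPM in shARF (-0.77, SE 0.05). Its neighbour Ankle1, a nuclease, was at 7.21, 8.34 and 6.05 CPM in shNT and 2.03, 2.28 and 2.26 CPM in shARF (-1.72, SE 0.14). For these 3 genes the groups did not overlap. Ifi30, a lysosomal thiol reductase, rose among falling neighbours, from 26.5, 28.1 and 24.9 to 36.6, 38.5 and 36.6 CPM (0.49, SE 0.06).

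In the high stretch, genes that rose and genes that fell lay side by side. Gsr, glutathione reductase, was at 101, 96.1 and 98.7 CPM in shNT and 138, 139 and 136 CPM in shARF (0.48, SE 0.03). Prag1, a pseudokinase, was at 22.9, 23.1 and 22.8 CPM in shNT and 55.5, 51.7 and 54.4 CPM in shARF (1.23, SE 0.04). Both were higher in each shARF library than in any control. Tnks, the poly-ADP-ribosylating enzyme tankyrase, was at 334, 329 and 313 CPM in shNT and 246, 264 and 254 CPM in shARF (-0.35, SE 0.04). Rbpms, an RNA-binding protein, was at 29.0, 26.9 and 29.1 CPM in shNT and 7.61, 8.10 and 9.42 CPM in shARF (-1.76, SE 0.09). The median of this stretch was thus made of differences in both directions, with no overlap between groups for these 4 genes. Dlc1, a GTPase-activating protein in the same stretch, was at 217, 217 and 213 CPM in shNT and 213, 207 and 201 CPM in shARF and was not called (-0.06, SE 0.03).

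At 50 to 60 Mb the rises included genes that the control cells hardly expressed. Hand2, a transcription factor of heart and limb mesenchyme (chr8:57320983-57324633, plus strand), was at 0, 0.144 and 0.340 CPM in shNT and 10.9, 11.6 and 11.2 CPM in shARF (6.15, SE 0.49). With controls so near 0 the size of the fold is loose, at 5.56 without shNT replicate 1, 7.19 without shNT replicate 3 and 7.1 in limma-voom. The next member in order was the long noncoding gene 5033428I22Rik, annotated from position 57332118. It was at 0.0869, 0 and 0 CPM in shNT and 3.95, 4.13 and 4.61 CPM in shARF. Gpm6a, a membrane glycoprotein best known from neurons, had 2 counts over the shNT libraries and 1169 over the shARF libraries, a ratio of 596 after scaling (95% counting interval 165 to 4925). All 3 genes were near 0 in every control and present in every shARF library. They passed the threshold of 1 CPM through the shARF libraries alone, so their direction was fixed by it and nothing is read from that direction. Other genes of the window rose by less, such as Hpgd, which degrades prostaglandins (1.25, SE 0.12), and Galnt7, a glycosyltransferase (0.45, SE 0.05). Of those that fell, Vegfc, a lymphatic growth factor, was at 21.4, 19 and 21 CPM in shNT and 12.2, 12.3 and 12.3 CPM in shARF (-0.74, SE 0.06), with no overlap, and Neil3, a DNA glycosylase, stood at -0.58 (SE 0.07).

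The displacement was seen in members of every level, length and base composition examined. The chromosome's median was -0.27 at 1 to 5 CPM (131 members), -0.37 at 5 to 20 CPM (161), -0.28 at 20 to 100 CPM (325) and -0.16 at 100 CPM or more (130). The genes of other chromosomes had medians of -0.10, -0.03, 0.05 and 0.08 in the same ranges, so that the difference from them was -0.17 in the lowest range and -0.34 to -0.24 in the others. Over 3 equal parts of all genes by GC content of the longest transcript the chromosome was at -0.20, -0.31 and -0.28, against 0.05, 0.02 and 0.00 elsewhere. Over 3 equal parts by transcript length it was at -0.27, -0.30 and -0.25, against 0.02, 0.03 and 0.02. Protein-coding members had a median of -0.29 (0.03 elsewhere), and the 100 members of other types -0.12, the 45 processed pseudogenes among them 0.06. Reads of pseudogenes and of their parent genes may have been exchanged in counting.

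To describe which functions the members serve, 10 lists of chromosome 8 genes by role were used, with 211 members among 238 genes and the rest below 1 CPM. Those in a list had a median of -0.20 (117 called lower, 52 higher) and the 536 in none -0.30 (309 and 77). The counts of each list below stand beside 57.0% called lower and 17.3% higher over all members. Over all genes at 1 CPM or more the shares were 30.5% and 32.9%. The lists were made with earlier results of these data known, and up to 4 members with the highest mean CPM are named from each.

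**Figure D4:**
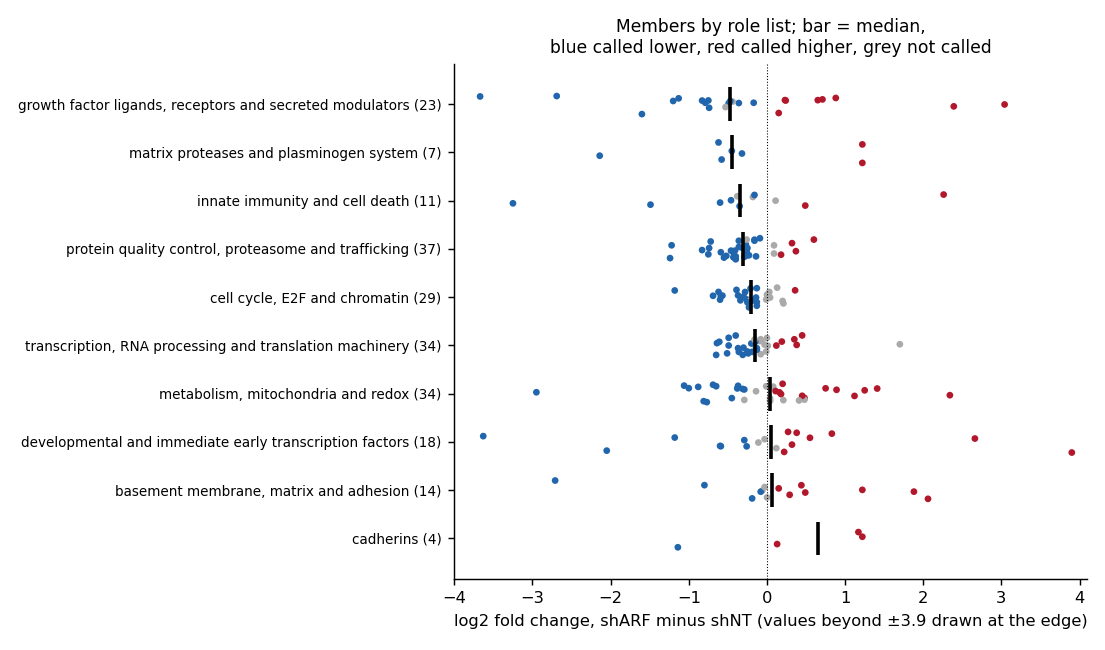
Log2 fold change (shARF minus shNT, horizontal axis) of the members of each of 10 role lists, one point per member, coloured by call, with the list's median as a bar; Hand2 is drawn at the right edge. The points of the cell cycle, RNA and protein quality control lists crowd together below 0, while those of the matrix, growth factor, transcription factor and metabolism lists spread to both sides.

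Of the 10 lists, that of protein quality control and trafficking had the highest share called lower: 30 of its 37 members were lower and 4 higher, with a median of -0.31. Lamp1, the major glycoprotein of the lysosome membrane (chr8:13159161-13175338), was at 671, 687 and 695 CPM in shNT and 507, 514 and 506 CPM in shARF (-0.43, SE 0.02). Glg1, a Golgi glycoprotein, was at 534, 528 and 537 CPM in shNT and 396, 408 and 411 CPM in shARF (-0.40, SE 0.02). Both fell by more than the median of the list. Calr, the calcium-binding chaperone calreticulin, was at 1089, 1064 and 1109.9 CPM in shNT and 984, 979 and 964 CPM in shARF (-0.16, SE 0.02). Mbtps1 was at 336, 348 and 334 CPM in shNT and 283, 286 and 276 CPM in shARF (-0.27, SE 0.02). None of these 4 overlapped between the groups.

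Further members of this list were picked after their values were seen. Vps35, the core of the retromer that returns receptors from endosomes, was at 294, 304 and 295 CPM in shNT and 176, 179 and 177 CPM in shARF (-0.75, SE 0.02). Vps4a, the ATPase that disassembles ESCRT complexes, was at 70.9, 71.2 and 70.8 CPM in shNT and 29.0, 31.6 and 30.6 CPM in shARF (-1.22, SE 0.04). Map1lc3b, the LC3B protein of autophagosomes, was at 75.1, 78.5 and 77.7 CPM in shNT and 47.1, 46.6 and 44.5 CPM in shARF (-0.74, SE 0.04). These fell well beyond the median of the chromosome. Of the 4 that rose, Herpud1, an endoplasmic reticulum stress protein of protein degradation, was at 79.3, 77.7 and 87.7 CPM in shNT and 124, 126 and 122 CPM in shARF (0.60, SE 0.05). Usp10, a deubiquitinase (0.32), and Vps37a, an ESCRT subunit (0.37), rose as well.

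In the list of cell cycle, E2F and chromatin genes, 20 of 29 members were called lower and 1 higher, with a median of -0.21. Kat6a, a histone acetyltransferase, was at 256, 253 and 243 CPM in shNT and 165, 164 and 168 CPM in shARF (-0.60, SE 0.03). Smarca5, the ISWI chromatin remodeller, was at 402, 389.7 and 386 CPM in shNT and 355, 362 and 363 CPM in shARF (-0.13, SE 0.02). Both were lower in every shARF library. Tfdp1, the dimerization partner of E2F, was at 174, 225 and 231 CPM in shNT and 208, 215 and 201 CPM in shARF, and Ankrd11, a chromatin regulator, at 429, 415 and 413 CPM in shNT and 420.2, 419.9 and 414 CPM in shARF. For these the groups overlapped and neither was called.

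Picked after their values were seen, Rbl2, the p130 pocket protein that binds E2F4, was at 58.6, 60.9 and 61.7 CPM in shNT and 28.7, 26.6 and 24.8 CPM in shARF (-1.18, SE 0.06). It was the only member of that list called lower by 2-fold or more. Its partner E2f4 fell by 0.25 (SE 0.03) on the log2 scale, the histone chaperone Asf1b by 0.69 (SE 0.04) and Gins2, a subunit of the replicative helicase, by 0.57 (SE 0.05). The one member called higher was Cbfb, the partner of RUNX factors, at 139, 144 and 148 CPM in shNT and 186, 183 and 184 CPM in shARF (0.36, SE 0.03).

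Of 34 members in transcription, RNA processing and translation, 18 were called lower, 5 higher and 11 neither, with a median of -0.15. Aars, alanyl-tRNA synthetase, was at 637, 651 and 662 CPM in shNT and 832, 850.0 and 853 CPM in shARF (0.38, SE 0.02). Abce1, which recycles ribosomes, was at 401, 392 and 402 CPM in shNT and 424, 438 and 432 CPM in shARF (0.12, SE 0.02). Both were higher in each shARF library, though Abce1 was at 0.03 and not called with library sizes alone. Rpl13, a protein of the large ribosomal subunit, was at 572, 582 and 639 CPM in shNT and 517, 506 and 500.0 CPM in shARF (-0.24, SE 0.04), with the caution that ribosomal protein genes have many pseudogene copies. Cnot1, the scaffold of the CCR4-NOT deadenylase, was at 495, 507 and 454 CPM in shNT and 460.2, 457 and 440.4 CPM in shARF and was not called (-0.10, SE 0.04), since the third control library lay among the shARF libraries. Exosc6, an exosome subunit whose annotated gene lies within Aars on the same strand, was at 20.4 CPM in the first shARF library and under 3 CPM in the other 5, and was not called.

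Pooled after these values were seen, the 3 machinery lists held 100 members, of which 68 were called lower and 10 higher. The shares over all members were 57.0% and 17.3%. Of the 100, 4 had a fold change of 2-fold or more in the fit, called or not. Their interquartile range was 0.33. The 7 lists below held 111 members, of which 49 were called lower and 42 higher, with an interquartile range of 1.04. Of the 111, 32 had a fold change of 2-fold or more, called or not. The first set sat close together near the median of the chromosome and the second was spread widely to both sides. Such lists were not made for other chromosomes, so whether this contrast is particular to chromosome 8 was not tested.

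Matrix and adhesion genes included the 2 collagens shown above. Of 14 members 4 were called lower and 7 higher, with a median of 0.07. Col4a1 (chr8:11198423-11312826, minus strand) was at 229.6, 279 and 236 CPM in shNT and 1019.8, 1036 and 1056 CPM in shARF (2.06, SE 0.07). Col4a2 (chr8:11312805-11449287, plus strand) was at 235, 240.3 and 240.1 CPM in shNT and 888, 870.2 and 873 CPM in shARF (1.88, SE 0.02). The chains that these genes encode form the common collagen IV trimer of basement membranes. The means of the shARF group were 4.18-fold and 3.68-fold those of the controls, with no overlap. Comp, Has3, Ncan, Pdlim3 and Spock3 of this list were below 1 CPM.

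The other 3 members that the rule names from this list differed little. Fat1, an atypical cadherin, was at 1127, 1073 and 1072 CPM in shNT and 1059.9, 1054 and 1035 CPM in shARF and was not called (-0.06, SE 0.02). Itgb1, the integrin beta1 chain, was at 1072, 1030.3 and 1081 CPM in shNT and 1020.4, 1039 and 1052 CPM in shARF, an overlap between groups, and was not called (-0.03, SE 0.02). Tpm4, a cytoskeletal tropomyosin, was called lower at a log2 fold change of -0.08 (SE 0.02). In the same list the secreted protein Crispld2 went from 87.5, 98.6 and 98.2 CPM in shNT to 15, 12.3 and 16 CPM in shARF (-2.71, SE 0.11), far below its controls.

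Among the cadherins, which join cells to each other, 1 of 4 members fell and 3 rose. Cdh11, the cadherin of mesenchymal cells, was at 603, 605 and 593 CPM in shNT and 265, 264 and 289 CPM in shARF (-1.14, SE 0.04). Cdh3, P-cadherin, was at 188, 185 and 181 CPM in shNT and 199.9, 201 and 203 CPM in shARF (0.13, SE 0.02). The fall of Cdh11 was large and the rise of Cdh3 small, both without overlap, and with library sizes alone Cdh3 was at 0.04 and not called. Cdh13, a cadherin anchored by a lipid, was at 7.91, 7.37 and 7.39 CPM in shNT and 19, 17.4 and 16.4 CPM in shARF (1.22, SE 0.07). Cdh1, E-cadherin, was at 2.28, 1.93 and 2.21 CPM in shNT and 4.80, 4.84 and 4.76 CPM in shARF (1.17, SE 0.10). The summed epithelial markers, of which Cdh1 is one, were lower in shARF mostly through Krt18, while Krt19 rose, as given above. The cadherin genes thus moved apart from one another. Cdh5, Cdh8, Cdh15 and Cdh16 were below 1 CPM.

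Of 7 members among matrix proteases and related peptidases, 5 fell and 2 rose (median -0.45). Mmp2, the gelatinase, was at 224, 248 and 231 CPM in shNT and 159, 144 and 155 CPM in shARF (-0.62, SE 0.05). Plat, tissue plasminogen activator, was at 191, 201 and 202 CPM in shNT and 135, 132 and 132 CPM in shARF (-0.58, SE 0.03). Cpe, carboxypeptidase E, fell by 0.45 (SE 0.03) on the log2 scale and the membrane protease Adam9 by 0.32 (SE 0.03). The 2 that rose were Mmp15 and Tll1, each at 1.22 (SE 0.14 and 0.10) and each at under 10 CPM in the controls.

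**Figure D5:**
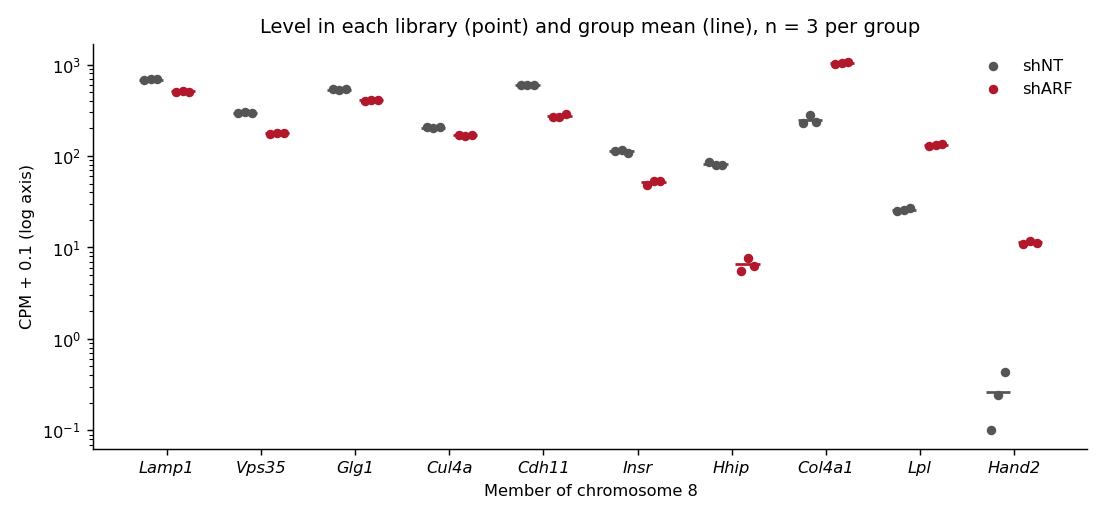
CPM per library (log axis, with 0.1 added) of 10 members described in the text, shNT libraries in grey and shARF libraries in red, with a bar at each group's mean. The 3 libraries of a group lie close together for each gene shown except Hand2 in shNT, where values near 0 spread on this axis. The groups do not overlap.

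Growth factors, receptors and their modulators had 13 of 23 members called lower and 8 higher (median -0.47). Fgfr1, a receptor for fibroblast growth factors, was at 253, 243 and 255 CPM in shNT and 202, 195 and 186 CPM in shARF (-0.36, SE 0.04). Efnb2, the ligand ephrin-B2, and Nrp1, a coreceptor for VEGF and semaphorins, rose by less, at 0.23 (SE 0.02) and 0.15 (SE 0.03), and with library sizes alone Nrp1 was at 0.06 and not called. Hhip, a decoy that binds Hedgehog ligands, had the largest fall among members at 5 CPM or more, from 86.0, 79.2 and 79.3 CPM in shNT to 5.49, 7.62 and 6.13 CPM in shARF (-3.67, SE 0.12). Its promoter, shown above, is rich in G and C and holds 2 GC boxes.

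Others in that list were picked after their values were seen. Insr, the insulin receptor, was at 114, 116 and 107 CPM in shNT and 48.3, 52.8 and 52.7 CPM in shARF (-1.13, SE 0.05). Angpt2, a ligand of the Tie2 receptor, was at 6.95, 6.69 and 6.49 CPM in shNT and 0.736, 1.35 and 1.03 CPM in shARF (-2.69, SE 0.19). Gdf15, a stress-induced cytokine, was at 0.804, 0.595 and 0.875 CPM in shNT and 6.03, 6.55 and 6.08 CPM in shARF (3.04, SE 0.15). Gdf15 passed the threshold of 1 CPM through the shARF libraries alone, so its direction was fixed by it and nothing is read from that direction. Nkd1, a feedback inhibitor of WNT signalling and one of the 10 largest rises, was at 3.93, 4.52 and 4.32 CPM in shNT and 22.4, 21.7 and 22.6 CPM in shARF (2.39, SE 0.07). None of these 4 overlapped between the groups. Ccl17, Ccl22, Fgf20 and Il15 were below 1 CPM.

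Transcription factors of development and of the immediate early response divided evenly, with 7 of 18 called lower and 8 higher (median 0.05). Nfix, of the nuclear factor I family, was at 834, 846 and 892 CPM in shNT and 697, 697 and 715 CPM in shARF (-0.29, SE 0.03). Zfhx3, a homeodomain zinc finger protein, was at 237, 228 and 226 CPM in shNT and 282, 299 and 283 CPM in shARF (0.32, SE 0.03). Jund, an AP-1 subunit, was at 147, 155 and 170.5 CPM in shNT and 195, 192 and 184 CPM in shARF (0.27, SE 0.06). For none of these 3 did the groups overlap. Irf2bp2, a corepressor, was not called (-0.03, SE 0.03), with shARF libraries at 202, 200.3 and 199 CPM amid controls at 197, 206 and 212 CPM. Hand2 rose, as described, and Sall1 and Maf had 2 of the largest falls. Sall1, a zinc finger protein of kidney and limb development, was at 13.8, 12 and 14.1 CPM in shNT and 1.03, 0.890 and 1.3 CPM in shARF (-3.63, SE 0.15), and Maf, a basic leucine zipper protein, at 86.7, 89.2 and 87.5 CPM in shNT and 21.5, 19.3 and 22.8 CPM in shARF (-2.05, SE 0.07).

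The Irx genes, homeobox factors that lie close together, did not share a direction, an observation made after their values were seen. Irx5 was at 44.9, 45.6 and 47.3 CPM in shNT and 21.1, 18.6 and 21.2 CPM in shARF (-1.18, SE 0.06). Irx3 was at 30.5, 31.2 and 32.8 CPM in shNT and 36.7, 35.9 and 37.6 CPM in shARF (0.22, SE 0.04). Irx6 was below 1 CPM.

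Metabolic genes were divided as evenly, with 13 of 34 called lower, 12 higher and 9 neither (median 0.04). Slc7a5, the transporter of large neutral amino acids, was at 309, 321 and 317 CPM in shNT and 537, 529 and 524 CPM in shARF (0.75, SE 0.02). Gpt2, mitochondrial alanine transaminase, was at 128, 134 and 133 CPM in shNT and 280.3, 288 and 288 CPM in shARF (1.12, SE 0.03). Both rose, with each shARF library above each control. Got2, mitochondrial aspartate transaminase, was at 282, 283 and 292 CPM in shNT and 213, 207 and 205 CPM in shARF (-0.45, SE 0.03). Prdx2, a peroxiredoxin, was at 225, 232 and 235 CPM in shNT and 148, 146 and 149 CPM in shARF (-0.65, SE 0.03). Lipoprotein lipase, Lpl, went from 25.1, 25.6 and 26.7 CPM in shNT to 127, 132 and 134 CPM in shARF (2.34, SE 0.04), and Cyba, the p22phox subunit of NADPH oxidases, from 31.8, 32.1 and 32.6 CPM in shNT to 3.99, 4.27 and 4.18 CPM in shARF (-2.95, SE 0.05).

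Of 11 members in innate immunity and cell death, 6 were called lower and 2 higher (median -0.35). Mlkl, the effector of necroptosis, was at 6.95, 6.82 and 6.87 CPM in shNT and 33.2, 33.1 and 32.6 CPM in shARF (2.26, SE 0.04). Each shARF library was far above each control. Nfatc3, a calcium-responsive factor, fell by 0.16 (SE 0.02) and the kinase Ikbkb of NF-kB signalling by 0.35 (SE 0.08) on the log2 scale. Nfat5, the factor of the osmotic response, was at 152, 219.6 and 133 CPM in shNT and 191, 185 and 168 CPM in shARF, an overlap, and was not called.

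Of the 10 largest falls and 10 largest rises among members with a mean of at least 5 CPM, those not yet named lay in most parts of the chromosome. The falls were in Cers4, a ceramide synthase (-2.48), Nat2, an arylamine acetyltransferase (-2.20), Agt, angiotensinogen (-2.14), Gnao1, a G protein subunit (-1.93), and Tcim (-1.83). Gnao1 was at 101 CPM in each shNT library and at 26.9, 27.3 and 25.6 CPM in shARF. The rises were in Inpp4b, an inositol phosphatase (2.49), Zfpm1, the GATA cofactor FOG1 (2.1), Smpd3, a neutral sphingomyelinase (1.60), and Mcf2l, a guanine nucleotide exchange factor (1.60). Inpp4b was at 2.80, 1.79 and 2.45 CPM in shNT and at 15.4, 16.4 and 7.76 CPM in shARF, where the third library lay well under the other 2. The mean of 5 CPM was taken over both groups. Some members reached it in a single group, such as Hand2, Inpp4b and Nkd1 in shARF and Sall1, Cyba and Cers4 in shNT. For such members the direction was fixed by the threshold, and nothing is read from it.

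Ces1g, a carboxylesterase of a family of close copies, had no count in the shNT libraries and 392 in the shARF libraries. With 3 counts taken as the floor for the control group as a whole, that is at least 133-fold higher. Ces1g too passed the CPM threshold through the shARF libraries alone. The assignment of reads among the copies is uncertain. Gm20388 was the 1 member that was not fitted: it had 14 CPM in the third shARF library and no count in the other 5. Like that of Exosc6, its level came from a single library.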

How the data were processed

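RNA from 6 samples was analysed, 3 shNT and 3 shARF, grouped by title. The authors deposited whole-number counts per gene. The submitters' processing notes list, on build GRCm38, DESeq2 1.34.0, StringTie 1.3.2, Picard 2.13.2, SAMtools 0.1.19, HISAT2 2.1.0 and Trim Galore 0.4.1. The counting tool, annotation, strand setting and handling of duplicates were not given in the sources used here. Without strand, reads within the 22 bases shared by Col4a1 and Col4a2 cannot be told apart, a small part of either gene. Aars and Exosc6 lie on the same strand, so strand would not separate their reads where they overlap. A further 6 columns match no sample of the series and were not used. The column index numbers of shARF differ from the titles, so columns were matched by group and replicate number.

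Of 54752 IDs, 54723 matched GENCODE M21 without version. edgeR 4.0.16 in R 4.3.3 (quasi-likelihood test, TMM, filterByExpr, two-sided) was fitted to 17128 genes with Benjamini-Hochberg adjustment; called means an adjusted p under 0.05. Errors are the SD over 3 libraries or the standard error of the fit (SE), and intervals cover counting error only. The fit was tested on simulated counts. No pair of replicates agreed within sampling noise (chi-square per gene 13.8 to 18.5 within groups, 136 to 143 between them).

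The chromosome, members and lists were chosen with earlier results of these data known. Named members are the 4 highest by CPM of each list, the 10 largest rises and falls (mean of at least 5 CPM, no overlap, no predicted model), the one nearest each window's median and 3 on each side of the threshold; others are marked as picked later, and some items under this rule are not reported here. Alternatives were other normalizations, DESeq2 1.42.0, limma-voom, other filters, member thresholds and windows, a replicate block and each library left out.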

Additional observations from a re-analysis of the deposited data

How the results depend on the processing

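Chromosome 8 had the lowest median of 20 chromosomes under all 14 alternatives of fit, with X or chromosome 17 next, at a difference of -0.29 to -0.27 from the median of all genes. The chromosome was picked for this rank on the same libraries, so nothing is read from it. A change of scaling moves all genes nearly alike and so leaves the rank and the difference nearly as they were. The median itself was -0.30 with upper quartile scaling, -0.36 with library sizes alone (where the median of all genes was -0.08), -0.28 with genes at 1 CPM in 3 libraries or members from 0.5 CPM, -0.25 with members from 20 CPM, -0.29 for protein-coding members and -0.20 as a mean. Leaving out each library in turn gave -0.28 to -0.26, 397 to 413 members called lower, 116 to 121 higher, 12 to 13 windows below 0 and -1.17 to -1.09 for Cdkn2a. The window at 50 to 60 Mb was the one that crossed 0, at 0.033 without shARF replicate 1 and 0.003 without shARF replicate 3. With library sizes alone 484 members were called lower and 105 higher, against 426 and 129, and over all genes tested 34.3% and 23.5%, against 27.7% and 28.8%. Among the 455 members from 20 CPM, 75 were called higher. A replicate block gave 407 lower, 117 higher and a median of -0.28, but correlations of deviations between libraries of the same number were -0.131, -0.0468 and -0.0331, so the numbers do not pair the samples. Over 71 named members and 14 alternatives, 956 of 994 values kept their side of the threshold, 16 lost the call (Ppp2cb, Pcm1, Spcs3, Abce1, Cdh3 and Nrp1) and 22 gained one. Of values called in either fit 0 changed sign, while Nfat5, Tfdp1 and Ankrd11, not called and near 0, did so in some. RNA alone was measured in 3 libraries a group, the labels do not say whether these were separate cultures, and the depth limits the folds of genes near 0.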
